A study of Mus musculus with 7 samples.

Results

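Amino acid transporters were read in wound macrophages of C57BL/6 mice, sorted for CD11b and then for the surface antigen encoded by Adgre1, on day 3 (d3) and day 7 (d7) after polyvinyl alcohol sponges were placed under the skin of the back. There were 3 d3 samples (replicates 1, 3 and 4) and 4 d7 samples (replicates 5, 6, 7 and 8), which the labels call biological replicates, each on 1 Affymetrix GeneChip Mouse Transcriptome array. The labels name no genotype or agent other than wounding for either group. The methods give C57BL/6 mice bought for the study an age of 8 weeks. For experiments in general they state an age range that starts at 8 weeks, and mice of both sexes. Neither statement is tied to these arrays. The sources used here do not say whether a sample came from 1 mouse or from pooled mice, and there was no unwounded group. The genes are those whose single symbol in the platform annotation begins with Slc1a, Slc3a, Slc6a, Slc7a, Slc36a, Slc38a or Slc43a. They number 63, out of 30176 genes with a single symbol on the array, and were measured by 64 probe sets. Only Slc6a9, a glycine transporter, had more than 1 probe set, and the one with the higher mean over all 7 arrays stood for it. Slc7a6os meets the naming rule because it lies opposite Slc7a6, and is not itself a carrier.

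Cells take up, exchange and release amino acids through solute carriers. Carriers of the Slc7 light chain type work only as a pair with a heavy chain of the Slc3 family, which brings them to the plasma membrane. Carriers of the Slc1, Slc6 and Slc38 families mostly draw on the sodium gradient, whereas some Slc36 carriers move amino acids together with protons, often out of lysosomes. In macrophages these genes are known for arginine supply to arginase and nitric oxide synthase, for cystine supply to glutathione synthesis, and for signalling of lysosomal amino acid content to the mTORC1 kinase.

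Of the 63 genes, 22 were above the array background and 41 were not. The background was set at 5.39 on the log2 scale, the highest value that any of the 23 antigenomic probe sets (sequences found in no mouse transcript) reached on any array. All 22 had a mean above it on both days. That is 34.9% of the transporters, against 38.9% of all genes with a single symbol. The heavy chain Slc3a2 was above it, and with it 5 of 10 light chains, 2 of 5 cationic amino acid transporters, 1 of 2 neutral exchangers of Slc1, 2 of 4 Slc36 carriers, 6 of 11 Slc38 carriers and 2 of 3 Slc43 carriers. None of the 5 glutamate transporters of Slc1 and none of the 10 amino acid transporters of Slc6 was above it, among them Slc1a2 and Slc1a3, the glutamate carriers of glia, at 3.50 and 3.40 on every array. Of the 9 Slc6 carriers for GABA, monoamines, taurine and creatine, only Slc6a6 and Slc6a8 were above it. Slc3a1, the heavy chain of kidney and gut, and its partner Slc7a9 were both under it, at 3.47 and 3.36. The gene nearest to the limit from below was Slc6a12, a betaine and GABA carrier, with a mean over all arrays of 5.11, and the nearest from above was Slc7a5 with 5.82. The 41 genes at or under the background had array values from 3.36 to 5.19, and 18 of them had exactly the same value on all 7 arrays. At this signal a level of these 41 genes in wound macrophages could not be told from no transcript. The bar chart of genes by role shows where the transporters above the background lie.

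**Figure D1:**
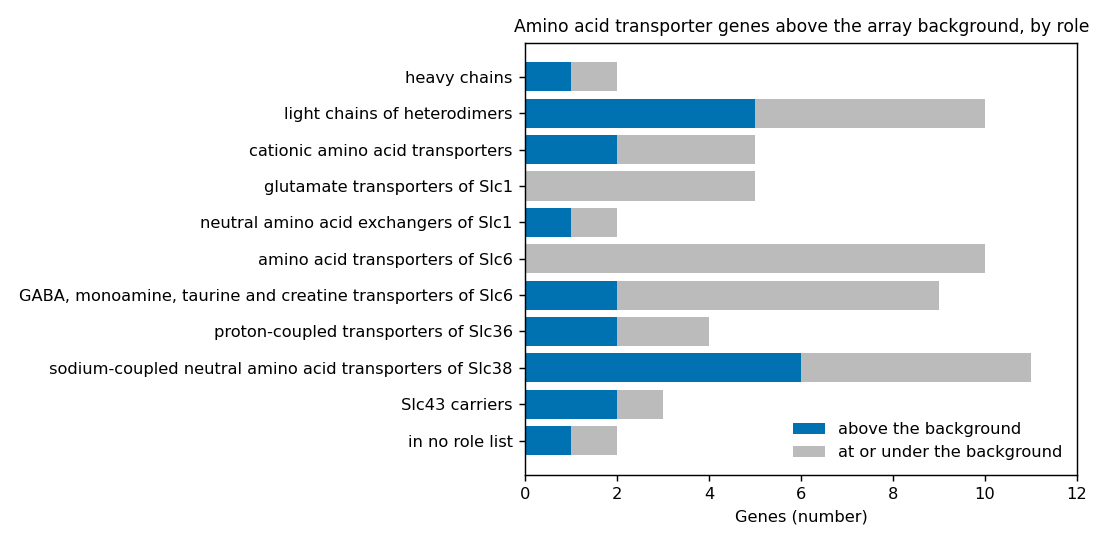
Number of amino acid transporter genes (horizontal axis) in each role group, split into those with a mean above the array background of 5.39 (blue) and those at or under it (grey). Slc6a21 and Slc7a6os are in no role list. The Slc38 group has 6 genes above it, while the glutamate transporters of Slc1 and the amino acid transporters of Slc6 have none.

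None of the 63 transporters passed the test between d3 and d7 at an adjusted p under 0.05 in limma, where 77 of the 65956 probe sets tested did (0.117%). At an unadjusted p under 0.05 there were 5 of 63 (4 higher and 1 lower on d7), and over all probe sets tested 7.66%. The d7 minus d3 differences of the 22 genes above the background ran from -0.28 to 0.69 on the log2 scale, with a median of 0.06, and the median over all 20204 probe sets above the background was 0.00 at 2 decimals. Of the 22, 14 had the higher mean on d7 (63.6%), against 50.0% of those probe sets. The median distance from a difference to the end of its 95% confidence interval was 0.23. For a typical transporter, the interval of a smaller difference thus includes no difference. These intervals are not adjusted for the number of probe sets, and passing took more, since Slc6a8 at 0.69 did not pass. For 6 of the 22 every d7 array lay above every d3 array (Slc6a8, Slc7a2, Slc36a4, Slc43a2, Slc38a9 and Slc6a6), and for none did every d7 array lie below, while among all probe sets above the background this held for 6.54% in the upward and 8.20% in the downward direction. In bulk RNA of this kind, a change in the share of cells that express a gene and a change of RNA per cell cannot be told apart. The plot of differences with their intervals gives all 22.

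**Figure D2:**
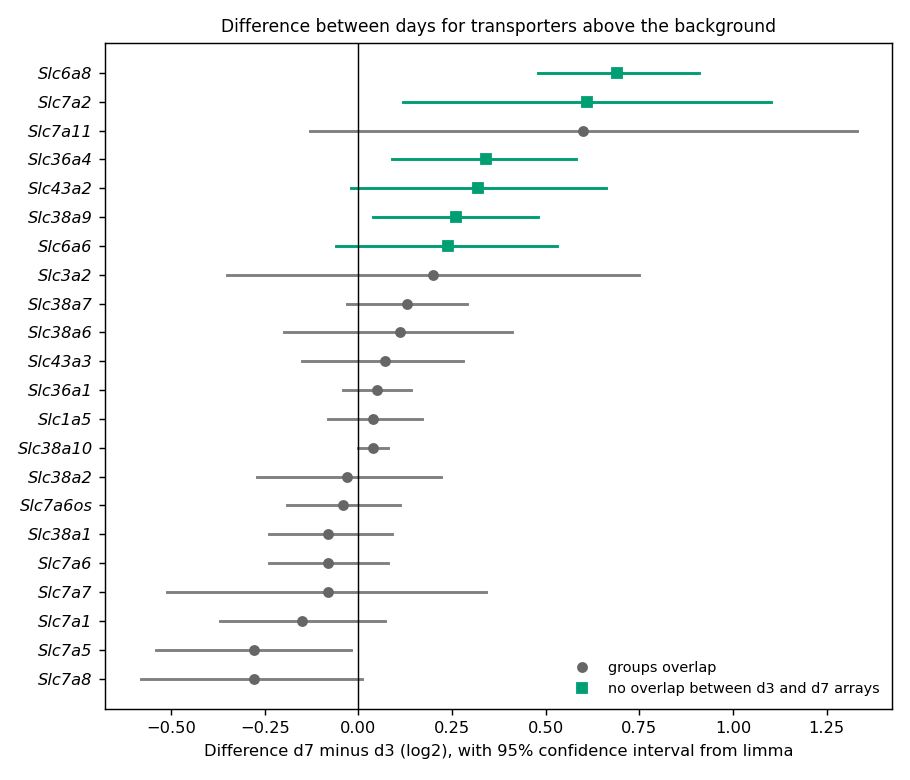
Difference in probe set level between days (horizontal axis, d7 minus d3, log2) for the 22 transporters above the background, with the 95% confidence interval from limma as lines. Green squares are the 6 genes whose d3 and d7 arrays do not overlap, led by Slc6a8 at 0.69, and grey circles are the other 16.

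**Figure D3:**
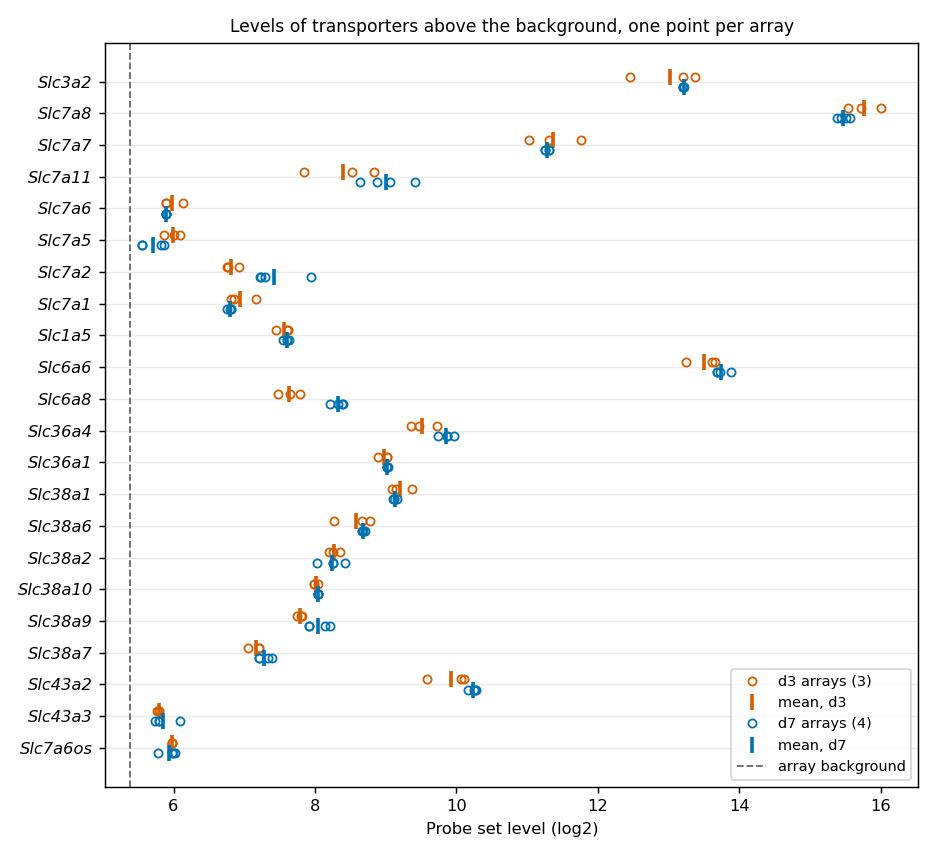
Probe set level (horizontal axis, log2) of the 22 transporters above the background, grouped by role, with 1 circle per array (orange d3, blue d7), a bar at each group mean and a dashed line at the array background of 5.39. For Slc3a2, Slc6a6 and Slc43a2 a single d3 array lies far below the other d3 arrays.

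Slc6a8 carries creatine, the store of high-energy phosphate, into cells with sodium and chloride, and had the largest difference of the 63 genes and the smallest p. Its levels on d3 were 7.48, 7.79 and 7.65 in replicates 1, 3 and 4, and on d7 they were 8.40, 8.21, 8.38 and 8.32 in replicates 5 to 8. The lowest d7 array lay 0.43 above the highest d3 array. The means were 7.64 ± 0.16 (SD, n = 3) and 8.33 ± 0.086 (SD, n = 4), a 1.62-fold difference (log2 difference 0.69, 95% confidence interval 0.48 to 0.91, adjusted p = 0.097 from limma). The adjusted p thus missed the threshold. It was under it after quantile normalization (adjusted p = 0.0453, where 0.268% of probe sets passed), after median centring of the arrays (adjusted p = 0.0228, 0.338%), among probe sets at or above the median level (adjusted p = 0.043, 0.631%), among those above the background (adjusted p = 0.024, 1.85%) and among those with 7 different values (adjusted p = 0.0112, 6.79%). With single arrays left out, the difference ran from 0.61 to 0.77 and the adjusted p from 0.0823 to 0.318. Slc6a6, the taurine carrier, had 13.62, 13.24 and 13.66 on d3, against 13.68, 13.69, 13.72 and 13.88 on d7. Its groups were parted by 0.02 only (log2 difference 0.24, interval -0.06 to 0.53, adjusted p = 0.662), and without d3 replicate 3 the difference was 0.10.

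Slc7a2 (CAT2) imports arginine, lysine and ornithine and is known in mouse macrophages for feeding arginase and inducible nitric oxide synthase. It was at 6.93, 6.75 and 6.77 on the d3 arrays and at 7.22, 7.94, 7.29 and 7.24 on the d7 arrays. All 4 d7 arrays were higher than all d3 arrays, and d7 replicate 6 stood far above the other d7 arrays. The log2 difference was 0.61 (1.52-fold, interval 0.12 to 1.10, adjusted p = 0.647), and without d7 replicate 6 it was 0.44 (adjusted p = 0.278). That array also read highest of the d7 arrays for the neutrophil markers S100a8 (12.06, others 9.76 to 10.62), S100a9 (10.95, others 8.68 to 9.33) and Cxcr2 (8.31, others 7.23 to 7.45). Of the other neutrophil markers above the background, Retnlg was also highest there (6.94, others 6.05 to 6.25). Csf3r read 12.49 on both that array and d7 replicate 7, and Mmp9, at 9.92, was under d7 replicate 7 at 10.07. The neutrophil markers Ly6g, Camp, Ngp and Ltf had means under the background on both days. Among the d7 arrays, Ly6g was highest on replicate 5 (5.58, against 5.29 on replicate 6). Camp (5.11) and Ngp (3.63) were highest on d7 replicate 6, and Ltf read 3.86 on every d7 array. The part of neutrophil RNA in the Slc7a2 value was not tested. Slc7a1 (CAT1), the carrier of the same amino acids found in most tissues, read 7.16, 6.85 and 6.81 on d3, then 6.80, 6.81, 6.75 and 6.81 on d7. Its groups met at 6.81, with d3 replicate 1 above all other arrays (log2 difference -0.15, interval -0.37 to 0.07, adjusted p = 0.662), and without that array the difference was -0.04. The 3 other cationic transporters were under the background on both days.

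Slc3a2 encodes the heavy chain CD98 (4F2hc), the obligate partner of 5 of the light chains above the background. It had 13.37, 12.46 and 13.21 on d3, against 13.21, 13.21, 13.22 and 13.21 on d7. Replicate 3 was the low array on d3, replicate 1 lay above all d7 arrays, and replicate 4 was level with them. The log2 difference of 0.20 (interval -0.35 to 0.75, adjusted p = 0.735) became -0.08 without d3 replicate 3. Of the 5 light chains, 4 had a lower mean on d7 and 1 a higher one, and none passed.

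Slc7a11 (xCT) exchanges extracellular cystine for glutamate and so feeds glutathione synthesis. Its d3 levels were 8.84, 8.52 and 7.84, and its d7 levels were 8.88, 9.41, 9.06 and 8.64. The groups overlapped through d3 replicate 1 and d7 replicate 8, and d3 replicate 4 was the lowest array by far. The log2 difference of 0.60 had the widest interval of the 22 genes, -0.13 to 1.33 (adjusted p = 0.662), and was 0.32 without d3 replicate 4. Slc7a8 (LAT2), an exchanger of neutral amino acids, had 16.01, 15.54 and 15.72 on d3, against 15.38, 15.51, 15.56 and 15.44 on d7. It overlapped only between d3 replicate 3 and d7 replicate 7, by 0.02 (log2 difference -0.28, interval -0.58 to 0.01, adjusted p = 0.647), and without d3 replicate 1 the difference was -0.16. Slc7a5 (LAT1), which exchanges leucine and other large neutral amino acids, was at 6.00, 6.09 and 5.87 on the d3 arrays and at 5.56, 5.56, 5.83 and 5.87 on the d7 arrays. These values lie near the background, and the interval of its log2 difference of -0.28 was -0.54 to -0.02 (adjusted p = 0.647). Slc7a7 (y+LAT1), which exports arginine and lysine in exchange for neutral amino acids, had 11.76, 11.02 and 11.31 on d3 and 11.25 to 11.31 on d7. All 4 d7 arrays lay inside the d3 range (log2 difference -0.08, interval -0.51 to 0.34, adjusted p = 0.863). Slc7a6 (y+LAT2) was at 5.90 on every array but d3 replicate 4, which was at 6.14.

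Because Slc7a11 is a known target of the transcription factor Atf4, which acts in amino acid shortage, the promoter windows of the transporters were searched for the core of the C/EBP-ATF response element, TGATGNAA, on both strands. The windows are those of RefSeq on GRCm38.p6, from 250 bases before to 50 bases after a gene's start, and exist for 46 of the 63 genes and 15 of the 22 above the background. Of the 15, the light chains Slc7a11 and Slc7a7 have a match, as have 1219 of all 27025 genes with a window (4.51%). The window of each is shown 5′ to 3′ along the gene, with the matches in capitals. That of Slc7a11 lies at chr3:50443564-50443863 and that of Slc7a7 at chr14:54417895-54418194, both on the minus strand.
Slc7a11: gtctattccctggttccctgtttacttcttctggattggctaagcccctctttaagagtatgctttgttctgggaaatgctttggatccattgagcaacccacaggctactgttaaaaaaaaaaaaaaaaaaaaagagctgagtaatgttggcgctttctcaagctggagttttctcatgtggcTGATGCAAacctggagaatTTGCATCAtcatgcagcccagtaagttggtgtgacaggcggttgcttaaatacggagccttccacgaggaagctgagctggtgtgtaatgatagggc
Slc7a7: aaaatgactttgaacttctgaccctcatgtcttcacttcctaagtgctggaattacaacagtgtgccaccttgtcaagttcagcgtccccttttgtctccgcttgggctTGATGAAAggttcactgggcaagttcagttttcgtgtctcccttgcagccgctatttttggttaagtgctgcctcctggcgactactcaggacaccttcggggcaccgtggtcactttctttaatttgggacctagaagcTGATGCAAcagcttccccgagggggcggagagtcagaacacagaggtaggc
The Slc7a11 window holds 2 matches on opposite strands, at bases 185 to 192 and 204 to 211. The Slc7a7 window also holds 2, at bases 110 to 117 and 250 to 257, and the latter recurs in the window of another start of the gene at chr14:54417653-54417952. The core of the antioxidant response element of Nrf2, TGACNNNGC, was found for Slc7a1, Slc7a6, Slc36a1 and Slc38a2 among the 15, and for 3781 of the 27025 genes (14%), and shares no base with the matches printed above. Of the 6 transporters whose groups did not overlap, 3 have a window (Slc36a4, Slc43a2 and Slc38a9) and none of these holds either core. A match describes the sequence only, and no match says only that these letters are absent from that window.

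Among carriers of the lysosome and of the Slc36 family, Slc36a4 (PAT4), a high-affinity carrier of proline and tryptophan, read 9.36, 9.73 and 9.47 on d3, then 9.86, 9.96, 9.74 and 9.86 on d7. The groups were parted by 0.01 only (log2 difference 0.34, interval 0.09 to 0.58, adjusted p = 0.606). Slc38a9, the arginine-sensing carrier of the lysosomal membrane that acts on mTORC1, had 7.80, 7.74 and 7.81 on d3, against 7.91, 8.21, 7.91 and 8.14 on d7. Its d7 arrays were all higher, 2 of them by about 0.1 (log2 difference 0.26, interval 0.04 to 0.48, adjusted p = 0.647). Slc36a1 (PAT1), which exports small amino acids from lysosomes, was at 8.89 on d3 replicate 1 and at 9.02 or 9.03 on the other 6 arrays. Slc38a7, a lysosomal exporter of glutamine and asparagine, ranged from 7.06 to 7.21 on d3 and from 7.21 to 7.39 on d7 (log2 difference 0.13, interval -0.03 to 0.29, adjusted p = 0.662), and without d3 replicate 3 the difference was 0.08. By the methods' t-test, unadjusted, Slc6a8, Slc7a2, Slc36a4 and Slc38a9 had p under 0.05, as had 5.54% of all probe sets.

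The importers of glutamine and other small neutral amino acids did not pass either. Slc38a1 (SNAT1) ranged from 9.09 to 9.37 on d3 and from 9.11 to 9.16 on d7 (log2 difference -0.08, interval -0.24 to 0.09). Slc38a2 (SNAT2), which amino acid shortage is known to induce, ranged from 8.20 to 8.36 and from 8.03 to 8.43 (log2 difference -0.03, interval -0.27 to 0.22). Slc1a5 (ASCT2) ranged from 7.45 to 7.62 and from 7.55 to 7.64 (log2 difference 0.04, interval -0.08 to 0.17). In all 3 the groups overlapped, and a difference beyond 0.27 in either direction lies outside their intervals. Slc1a4 (ASCT1), of the same family as Slc1a5, was under the background at 3.90 to 4.02. Slc43a2 (LAT4), a facilitative carrier of branched-chain amino acids, was at 10.07, 9.58 and 10.11 on the d3 arrays and at 10.16, 10.25, 10.28 and 10.26 on the d7 arrays. Here d3 replicate 3 was the low array (log2 difference 0.32, interval -0.02 to 0.66, adjusted p = 0.649), and without it the difference was 0.15. Slc43a3, which carries purine bases and not amino acids, Slc38a6, Slc38a10 and Slc7a6os make up the rest of the 22, with log2 differences from -0.04 to 0.11.

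The d3 arrays differed from each other more than the d7 arrays for several transporters. Among the 21 of the 22 genes with a single lowest d3 array, that array was replicate 3 for 12, replicate 1 for 5 and replicate 4 for 4, and among all 16989 such probe sets above the background it was replicate 3 for 41.6%. The array's positive controls of d3 replicate 3 also read lowest, their median being 9.78 where the other 6 arrays had 10.01 to 10.09. Leaving that replicate out cannot remove a transporter from the 6 whose d7 arrays all lay above d3, and it added none to them (10.0% of probe sets above the background then lay wholly above). Slc7a8 then lay wholly below d3 (13.5% did). Of the 22 genes, 7 had 7 different values, where 32.7% of all probe sets above the background did. On d7, Slc7a6 and Slc38a10 each had 1 value on all 4 arrays, and such repeats make the spread of a group smaller than that of separate readings. The map of deviations shows these arrays.

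**Figure D4:**
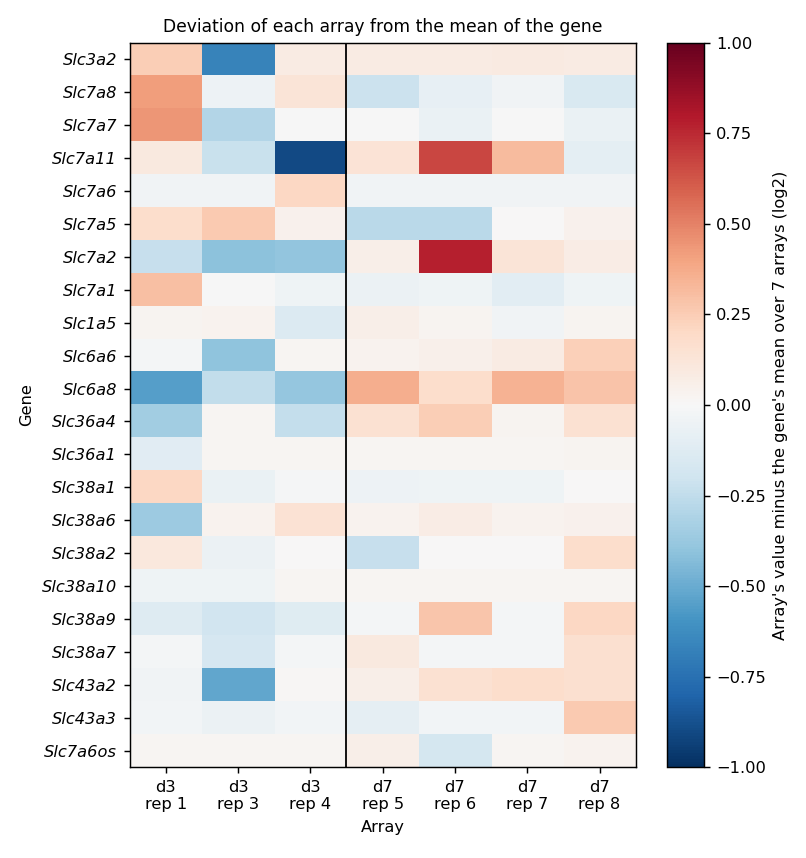
Each array's value minus the gene's mean over all 7 arrays (colour, log2, red above and blue below) for the 22 transporters above the background (rows) on the 3 d3 and 4 d7 arrays (columns, parted by a line). The low d3 replicate 3 for Slc3a2, Slc6a6 and Slc43a2, the low d3 replicate 4 for Slc7a11 and the high d7 replicate 6 for Slc7a2 stand out.

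Levels of the sorting markers were 16.84 (d3) and 16.85 (d7) for Adgre1, and 17.13 (d3) and 17.10 (d7) for Itgam, which encodes CD11b. The 5 monocyte markers measured all had a lower mean on d7 and did not pass, and their summed level on the log2 scale ran from 17.51 to 18.15 on d3 and from 15.64 to 16.25 on d7. That of 10 neutrophil markers ran from 13.51 to 13.94 and from 12.85 to 13.72. Of the 6 above the background, S100a8, S100a9 and Cxcr2 had a higher mean on d7, and Csf3r, Mmp9 and Retnlg a lower one, and only Retnlg passed. On d7 replicate 6, where the first 3 stood apart, Slc7a2, Slc7a11, Slc36a4, Slc38a6 and Slc38a9 of the 22 transporters had their highest d7 value. For Slc38a6 it was 8.71 there, with the other d7 arrays at 8.67 to 8.68. Slc6a8 (8.21) and Slc7a6os (5.78) had their lowest d7 value there. The share of all probe sets that were highest on that array was not counted. Whether these transporters are more than any 1 of the 4 d7 arrays would give was thus not tested. Without that replicate the difference of Slc7a11 was 0.46, that of Slc36a4 0.30 and that of Slc38a9 0.21. The part of monocytes or neutrophils in the transporter differences was not tested. All 9 fibroblast, all 8 T and NK cell and all 5 keratinocyte markers measured were at or under the background on both days, Col1a1 and Cd3e among them at the same value on all arrays. Of 4 B cell, 7 dendritic cell, 6 endothelial and 6 mast cell and eosinophil markers, 1, 1, 2 and 1 were above it, and none of these lists had a member that passed.

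Genes that work beside the transporters were read from lists of related functions, which were chosen with earlier results of these data known. In these lists 2 genes passed, both higher on d7, and over all probe sets tested 0.117% passed. Of 9 genes of glutamine, glutamate and cystine metabolism measured, 5 were above the background and all 5 had a higher mean on d7 (median log2 difference 0.73). Gpt2, the mitochondrial alanine aminotransferase, rose 1.65-fold, from 6.16, 6.34 and 6.26 to 7.00, 7.03, 6.94 and 6.94 (log2 difference 0.73, interval 0.60 to 0.85, adjusted p = 0.0274 from limma). With single arrays left out, the adjusted p of Gpt2 ran from 0.0327 to 0.133, and it stayed under the threshold only without d3 replicate 1. Of 8 Nrf2 targets that are no transporters, 6 were above the background and all 6 had a higher mean on d7 (median 0.93). Hmox1, which breaks down heme, rose 2.89-fold, from 12.44, 12.70 and 12.57 to 14.13, 13.99, 14.14 and 14.14 (log2 difference 1.53, interval 1.35 to 1.71, adjusted p = 0.0109). The adjusted p of Hmox1, with arrays left out in the same way, ran from 0.0184 to 0.0796, and it was over the threshold without d3 replicate 4 or d7 replicate 5, 7 or 8. The other Nrf2 targets above the background had log2 differences from 0.05 to 1.23 and did not pass, with Gclc and Txnrd1 counted in both lists.

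In the remaining lists no gene passed, and 3 of the genes named here had an adjusted p under the threshold in other settings. Of 18 genes listed as amino acid transporters of other families, 16 were above the background (7 higher and 9 lower in mean on d7, median -0.01). Among the 16 are Slc25a39 and Slc25a40, known for glutathione and not for amino acids, with log2 differences of 0.16 and 0.02. Slc16a10, a carrier of aromatic amino acids, read 10.30, 9.83 and 10.11 on d3, then 9.25, 9.03, 9.32 and 9.37 on d7, with no overlap (log2 difference -0.84, adjusted p = 0.18). Its adjusted p was 0.0466 among probe sets above the background and 0.0139 among those with 7 different values. Mfsd12, which is needed for import of cysteine into melanosomes and lysosomes, had a log2 difference of 0.47 (adjusted p = 0.662), which was 0.22 without d3 replicate 3. Of 33 genes of lysosomal amino acid sensing and mTORC1, 30 were above the background (24 higher and 6 lower in mean, median 0.06). Sesn3, of the sestrin family that restrains mTORC1, had 6.24, 6.57 and 6.42 on d3, against 6.91, 7.17, 6.98 and 6.98 on d7 (log2 difference 0.60, adjusted p = 0.178). Its adjusted p was 0.0466 above the background, 0.0458 after median centring and 0.0221 with 7 different values. With all probe sets of Sesn3 averaged, the log2 difference was 0.36 (adjusted p = 0.168 from limma). Rheb, the GTPase that activates mTORC1, had a log2 difference of 0.45 (adjusted p = 0.658), which was 0.20 without d3 replicate 3. Of 26 genes of the amino acid stress response, 16 were above the background (10 higher and 6 lower in mean, median 0.04). Sesn2, higher in mean on d7, is counted both here and in the mTORC1 list. Nupr1, a stress-induced nuclear protein, was at 8.31, 8.88 and 8.23 on the d3 arrays and at 7.11, 6.97, 7.12 and 7.19 on the d7 arrays (log2 difference -1.37, adjusted p = 0.0966), and Ddit3 (CHOP) had a log2 difference of -0.44 (adjusted p = 0.436). The adjusted p of Nupr1 was under the threshold when only probe sets above the background (0.0229), at least at the median level (0.0412) or with 7 different values (0.00402) were tested, and after median centring (0.0256). Atf4 itself ranged from 9.46 to 9.51 on d3 and from 9.28 to 9.45 on d7 (log2 difference -0.09, adjusted p = 0.662). The plot of the related lists sets these genes beside the transporters.

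**Figure D5:**
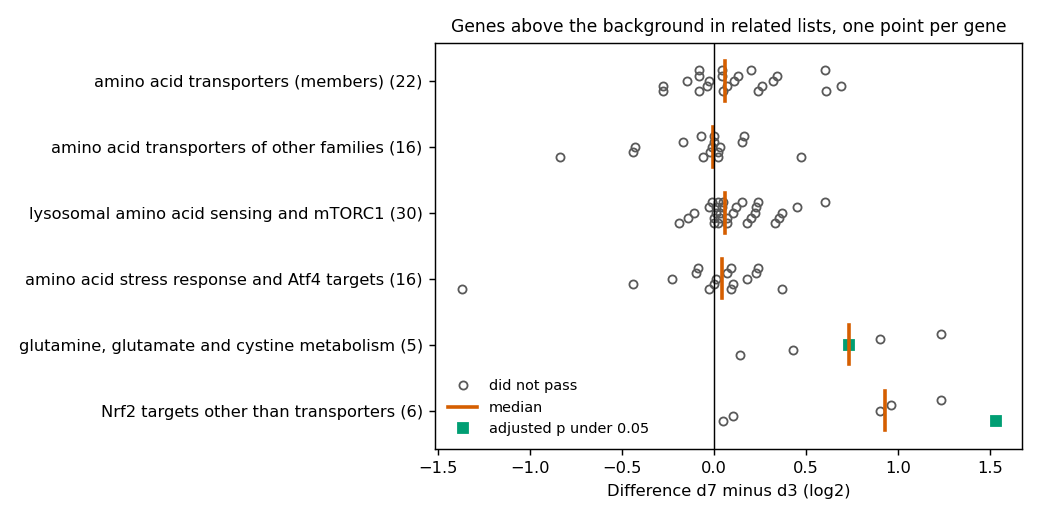
Difference between days (horizontal axis, d7 minus d3, log2) of each gene above the background, for the 22 transporters and 5 related lists (number of genes in parentheses), with 1 circle per gene, an orange bar at the list's median and a green square for the 2 genes that passed at an adjusted p under 0.05, Gpt2 and Hmox1. Gclc and Txnrd1 appear in both lower lists, and Sesn2 appears in the mTORC1 and the stress response lists.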

How the data were processed

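RNA of the sorted cells was amplified, labelled and hybridized by the authors, whose processing notes name Affymetrix Expression Console. The normalization between arrays is not given in the sources used here, and the scanner files were left out. The deposited values are probe set levels on a log2 scale, 1 column per array, not centred by gene. Array medians ran from 4.14 to 4.22. The number of arrays limits the precision. The limma p-values set each difference against the spread between these samples, which limma draws toward that of all probe sets tested.

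Of 72688 probe sets, 6732 array controls were left out, and 65956 were compared in R 4.3.3 by the moderated two-sided test of limma 3.58.1 without covariates, with p-values adjusted after Benjamini and Hochberg over all of them at a threshold of 0.05. Probe sets with several symbols, 3 of them naming a transporter, name no gene. Close paralogs such as Slc6a20a and Slc6a20b may share signal. Summed marker levels are log2 of the sum of linear values. The members and lists were chosen with earlier results of these data known. Genes were named that passed, that had the largest differences (14) or levels (8), or that pair with Slc3a2, and in related lists those that passed, or otherwise the 2 with the largest difference above the background. Atf4, marker genes, and other transporters were named beside these. List symbols were matched to the array also through RefSeq synonyms. Alternatives were a mean-variance trend, the methods' t-test, quantile normalization, median centring, filters on level and repeated values, averaged probe sets, and each array left out. The fit was also run on simulated data with known changes and normal noise, without the repeated values that many probe sets hold here. That run does not test the effect of such repeats. Counts and plots were made with Python 3.11.15 (pandas 2.3.3 and, for plots, matplotlib 3.10.9).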

Additional observations from a re-analysis of the deposited data

Results flagged for a closer look

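For each of the 22 transporters above the background, the highest and the lowest of the 4 d7 arrays were compared with the other d7 arrays, and 6 genes had an array whose gap to the nearest other took more of the group's range than Dixon's critical value at 95%. Chance flags about 1 in 20 groups, and repeated values make such gaps easier to reach. Slc7a2 had d7 replicate 6 at 7.94 and the others at 7.22 to 7.29, and Slc7a6os had the same replicate at 5.78 and the others at 5.98 to 6.02. For the other 4 genes the gap was under 0.05. Slc38a1 had d7 replicate 8 at 9.16 (others 9.11 to 9.12), Slc36a1 had d7 replicate 8 at 9.03 (others 9.02), Slc7a1 had d7 replicate 7 at 6.75 (others from 6.80 to 6.81), and Slc3a2 had d7 replicate 7 at 13.22 (others 13.21).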

How the results depend on the processing

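No transporter passed under the mean-variance trend, with averaged probe sets, by the methods' t-test after adjustment, or with any 1 array left out. The number that passed was 1, Slc6a8 each time, after quantile normalization, after median centring, and among probe sets at least at the median level, above the background or with 7 different values (the last chosen after seeing the data), and 4 by the methods' t-test unadjusted. Over the whole array 77 probe sets passed, against 177, 223, 208, 374 and 824 in those 5 settings, 3652 and 13 by the methods' t-test unadjusted and adjusted, and 212, 26 and 20 without d3 replicates 1, 3 and 4 and 11, 9, 9 and 1 without d7 replicates 5, 6, 7 and 8. The transporters above the background numbered 22 under each alternative but the 95th percentile of the antigenomic values, 4.93, which gave 23 by adding Slc6a12. With an array left out, the sign changed for Slc3a2 (-0.08 to 0.38), Slc7a7 (-0.25 to 0.12), Slc38a6 (-0.04 to 0.21) and Slc38a1 (-0.13 to 0.01). The array was d3 replicate 3 for Slc3a2 and d3 replicate 1 for the other genes, and why these arrays differ was not tested. Gpt2 also lost the call by the methods' t-test after adjustment (adjusted p = 0.0849). No paired analysis was possible because the d3 and d7 samples share no replicate number. Signal over background limits the rest, since 41 of the 63 genes lie at or under the background.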
